A study of Mus musculus with 15 samples.

Results

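The 10 genes described here encode the adaptors Tyrobp and Fcer1g, the receptors Trem2, Fcgr1, Fcgr2b, Fcgr3 and Fcgr4, and the signalling enzymes Syk, Plcg2 and Inpp5d. They were chosen by gene symbol from a table of 65964 entries, each was found in it, and all 10 passed the filter on low values that left 17505 entries for testing. RNA sequencing was done on brain tissue of C57BL/6 mice in a study of temporal lobe epilepsy. Kainic acid (KA), which activates a class of glutamate receptors and is used to provoke seizures in rodents, was given, per the treatment label, to all groups but the controls. There were 5 groups of 3 libraries. They were untreated controls (CTRL_L), KA alone (KA_L and KA_H), and a treatment labelled KA and APOE (APOE_L and APOE_H). The library names carry the letter L or H without a definition, there was no untreated H group, and how APOE was altered or supplied is not stated in the labels. Every library, the untreated ones included, carries the same label of a KA-induced epilepsy model. Age, sex and whether libraries came from separate animals are not given in the sources used here, so the p-values below take the spread among these libraries as their error, and that spread may be technical.

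Tyrobp, also called DAP12, and Fcer1g, the common Fc receptor gamma chain, are small membrane proteins that carry an immunoreceptor tyrosine-based activation motif (ITAM) in their cytoplasmic tails. Receptors without a signalling tail of their own pair with them. Trem2, a receptor for lipids and lipoproteins, pairs with Tyrobp, and the activating Fc gamma receptors, which bind immunoglobulin G, pair with Fcer1g. When the receptor binds its ligand, Src family kinases phosphorylate the paired tyrosines, the kinase Syk docks on them, and phospholipase C gamma 2 (Plcg2) is activated. The lipid phosphatase Inpp5d, known as SHIP1, and the inhibitory receptor Fcgr2b dampen the signal. In brain this pathway is used mainly by microglia and other macrophages, in phagocytosis and in the response to damage.

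The coding sequences of the motifs show what sets the adaptors apart from the other 8 genes. The 10 reading frames were searched for the ITAM arrangement, that is a tyrosine codon, 2 codons of any kind and a leucine or isoleucine codon, then the same again after 6 to 8 codons. It matched once in Tyrobp, once in Fcer1g and in no other member. The sequences were read from GENCODE M21 transcripts (GRCm38). Codons are counted from the start codon, and capitals mark the tyrosine codons that are phosphorylated. The Tyrobp stretch covers codons 92 to 106 of 114, and the Fcer1g stretch covers codons 65 to 79 of 86.
Tyrobp ITAM: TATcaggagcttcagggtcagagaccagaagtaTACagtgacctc
Fcer1g ITAM: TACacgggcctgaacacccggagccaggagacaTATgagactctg
The inhibitory counterpart (ITIM), an isoleucine codon, any codon, a tyrosine codon, 2 codons of any kind and a leucine or valine codon, was searched in Fcgr2b alone. It was found once, at codons 317 to 322 of 340 and is shown for contrast.
Fcgr2b ITIM: atcaccTACtcacttctc

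Values are TPM, a relative transcript abundance that is scaled to transcript length and to the library's total, so levels of different genes can be set side by side. An exact 0 in such a table can be a failed estimate and is given as listed at 0. All 18 microglia markers were at 1 TPM or more in all 15 libraries, whereas 9 of the 10 neuron markers failed the filter on low values although the labelled tissue is brain. The sum of the microglia markers ran from 41735 to 119455 TPM, and its highest value was in CTRL_L replicate 1. Summed choroid plexus markers were 23868 to 58842 TPM in all 6 H libraries and CTRL_L replicates 2 and 3, and 57.6 to 1281 TPM in the other 7 libraries. CTRL_L replicate 1 thus stood apart from its group. Assembled loci, which carry no gene name, took 2.20% to 6.79% of the total in H libraries and 6.73% to 12.1% in L libraries. Apoe, a lipoprotein that is itself a ligand of Trem2, ran from 161 to 889 TPM in CTRL_L, 1970 to 3262 TPM in KA_L and 8767 to 16636 TPM in KA_H. In the groups labelled APOE it was 0.69, 0.71 and listed at 0 in APOE_L, and 144, 6.49 and 12.4 TPM in APOE_H.

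The members were far apart in level. Over the 15 libraries the mean was 7755 TPM for Tyrobp and 3632 TPM for Fcer1g, and Tyrobp lay above 99.98% of the named entries. Fcgr3 (986 TPM) and Trem2 (821 TPM) followed, then Fcgr2b (319 TPM), Inpp5d (199 TPM), Fcgr1 (88.8 TPM), Fcgr4 (38.1 TPM), Syk (29.3 TPM) and Plcg2 (21.7 TPM). The order of Tyrobp over Fcer1g, of Fcer1g over Fcgr3 and of Trem2 over Fcgr2b held in 15 of 15 libraries. The other neighbours changed places in some libraries. These were Fcgr3 and Trem2 (Fcgr3 higher in 11 of 15), Fcgr2b and Inpp5d (11 of 15) and Fcgr4 and Syk (8 of 15). Less often it was Inpp5d and Fcgr1 (13 of 15), Fcgr1 and Fcgr4 (14 of 15) and Syk and Plcg2 (13 of 15). The adaptor transcripts thus exceeded those of each receptor and of the kinase.

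**Figure D1:**
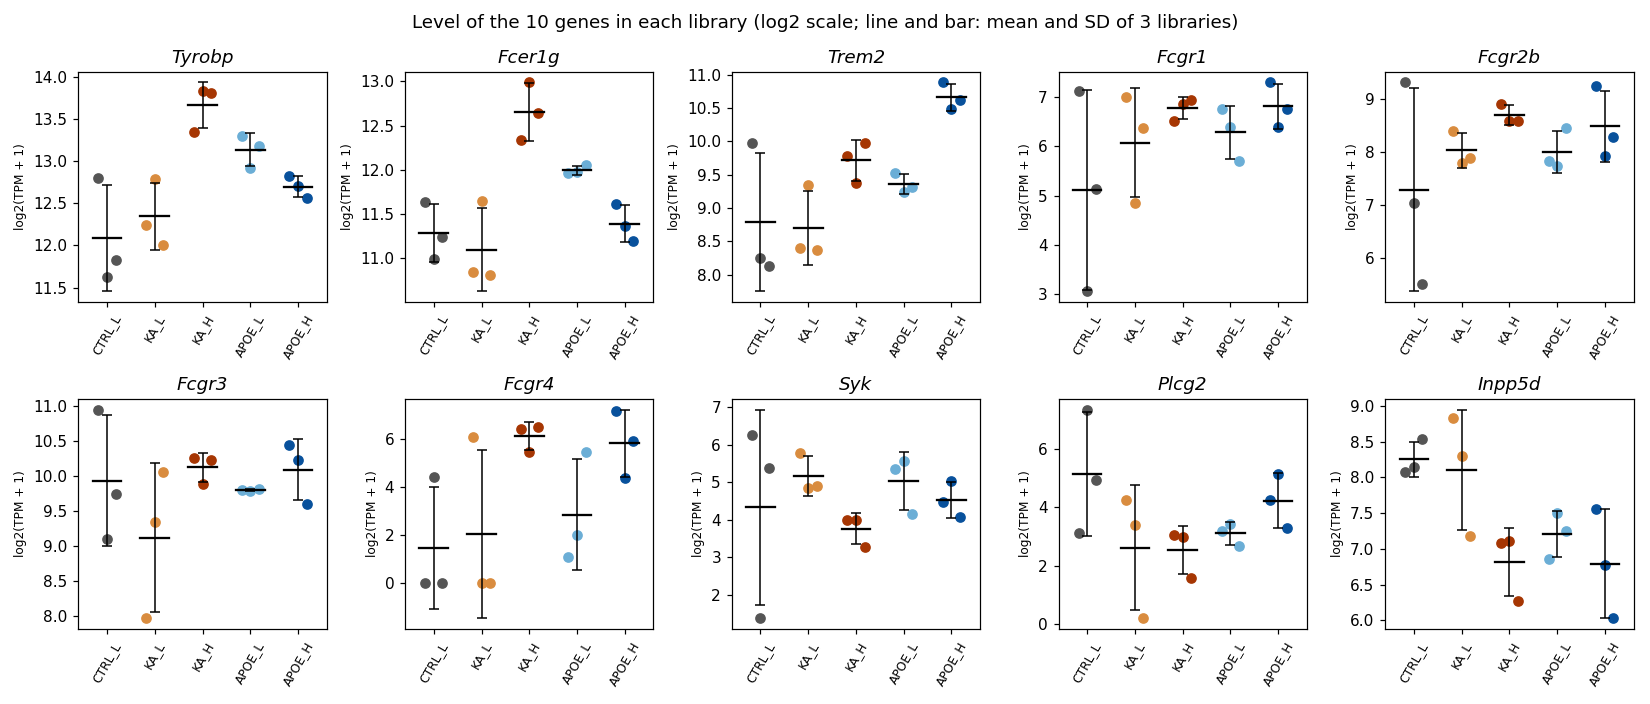
Level of each of the 10 genes in each library as log2(TPM + 1), by group, with points for the 3 libraries and a line and bar for their mean and SD. Tyrobp and Fcer1g are highest in the 3 KA_H libraries and Trem2 in the 3 APOE_H libraries, while Fcgr4, Syk and Plcg2 scatter widely within groups.

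Tyrobp was highest in KA_H, with no overlap with any other group. Its level was 10419.7, 14514 and 14355 TPM in KA_H replicates 1 to 3 (mean 13096 ± 2319, SD, n = 3). It was 4861, 7051 and 4119 TPM in KA_L and 7138, 3169 and 3631 TPM in CTRL_L. In APOE_L it was 10077, 7735 and 9271 TPM, and in APOE_H 7231, 6688 and 6068 TPM. APOE_L was thus the second highest group, and all 3 of its libraries exceeded all 3 of KA_L.

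Fcer1g had the same order of KA_H and APOE_L at the top. Its level in KA_H was 5171, 8129 and 6369 TPM (mean 6556 ± 1488, SD, n = 3). KA_L was at 1837, 3197 and 1796 TPM, CTRL_L at 3175, 2034 and 2413 TPM, APOE_L at 3989, 4018 and 4258 TPM, and APOE_H at 3127, 2628 and 2344 TPM. No library outside KA_H reached the lowest of that group, and APOE_H overlapped with both CTRL_L and KA_L.

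Trem2 followed another order, with its 3 highest values in APOE_H. They were 1892, 1429 and 1566 TPM (mean 1629 ± 238, SD, n = 3). KA_H was at 880, 664 and 1011 TPM, APOE_L at 739, 602 and 636 TPM, KA_L at 337, 648 and 329 TPM, and CTRL_L at 1006, 304 and 279 TPM. The high control was replicate 1, the library with the highest sum of microglia markers.

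KA_H against KA_L asked how the libraries labelled H and L differed after KA alone. Both adaptors were higher in KA_H, and they were the 2 of 10 members that passed the threshold, an adjusted p of 0.05 by limma with Benjamini-Hochberg adjustment over all entries tested. In this comparison 1.49% of all tested entries passed. The difference in log2(TPM + 1) was 1.56 (SE 0.25, adjusted p 0.00590) for Fcer1g and 1.31 (SE 0.26, adjusted p 0.0227) for Tyrobp, that is 2.88 and 2.45 times the KA_L mean in TPM. The call for Fcer1g held without any 1 of the 6 libraries, with a highest adjusted p of 0.0425. That for Tyrobp was lost without KA_L replicate 1 or 3 and without KA_H replicate 2 or 3, where adjusted p reached 0.102. With only these 6 libraries in the fit, adjusted p was 0.136 for both. Without the filter on low values, which raised the number of entries tested, no member passed in any of the 9 comparisons, and adjusted p here was 0.0863 for Fcer1g and 0.214 for Tyrobp. In bulk tissue, fewer cells of a type and less RNA per cell cannot be told apart.

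The 5 receptors all had positive differences in the same comparison, as did 52.5% of all entries. None of the 5 passed the threshold in limma, with an unadjusted p under 0.05 for 2 of them, Trem2 and Fcgr4, and for 14.8% of all entries. Trem2 differed by 1.01 (SE 0.45, adjusted p 0.301), with no overlap between the groups. Fcgr4, an activating receptor for immunoglobulin G, was 84.4, 42.7 and 88.4 TPM in KA_H, and 66.6 TPM in KA_L replicate 1 but listed at 0 in the other 2. The enzymes lay the other way or near 0. Inpp5d was 134, 137 and 76.0 TPM in KA_H against 454, 315 and 144 TPM in KA_L, a difference of -1.29 (SE 0.58, adjusted p 0.308). Syk was 15.04, 14.89 and 8.70 TPM in KA_H against 53.7, 27.7 and 28.7 TPM in KA_L, a difference of -1.41 (SE 1.097, adjusted p 0.595). Neither of these enzymes overlapped between the groups. The unadjusted p by limma was 0.0400 for Inpp5d and 0.216 for Syk, whose SE was large against the difference. The median over the 10 members was 0.85, beside 0.11 over all entries tested.

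Neutrophil markers moved with this comparison. Neutrophils also express Tyrobp, Fcer1g, Fcgr3 and Fcgr4. The 10 markers summed to 990, 1293 and 336 TPM in KA_H and to at most 0.39 TPM in CTRL_L, KA_L and APOE_L, with S100a8 the most abundant at 457, 873 and 129 TPM in KA_H. In APOE_H the sum was 5.64, 1193 and 0.02 TPM. In APOE_H replicate 2, Tyrobp (6688 TPM) and Fcer1g (2628 TPM) were the middle values of their group. Monocyte markers summed to 115 to 355 TPM in KA_H and 2.30 to 162 TPM in KA_L. Border macrophages express this pathway as well. Of their 9 tested markers 1 was called higher, Pf4 (limma adjusted p 0.0218), beside 1.49% of all entries called. Pf4 was 182, 70.6 and 436 TPM in KA_H and 5.82 TPM in KA_L replicate 2 but listed at 0 in the other 2. The 10 border macrophage markers summed to 387 to 657 TPM in KA_H and, with overlap, 197 to 569 TPM in KA_L, with Stab1 the most abundant. The part of neutrophils, monocytes and border macrophages in the adaptor levels of KA_H was not tested. The 6 markers of mast cells and basophils, other cells known for high Fcer1g, summed to at most 0.13 TPM in any library.

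**Figure D2:**
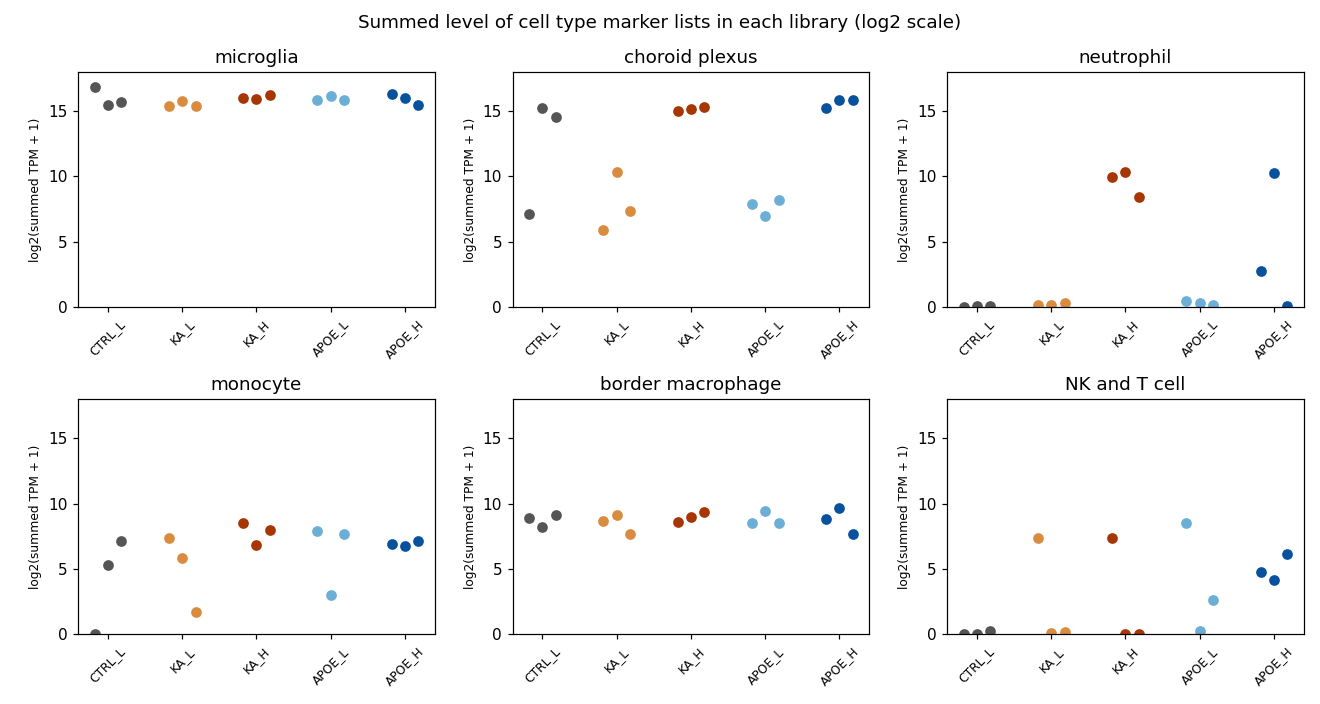
Summed TPM of 6 marker lists in each library as log2(sum + 1), by group, with 1 point per library. Neutrophil markers stand high in the 3 KA_H libraries (336 to 1293 TPM) and in APOE_H replicate 2, and choroid plexus markers in all H libraries and CTRL_L replicates 2 and 3, while microglia markers are high in every library.

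KA_L against CTRL_L asked what differed after KA among the L libraries. None of the 10 members passed the limma test, and none had an unadjusted p under 0.05, while 0.571% of all entries passed. The differences were 0.26 (SE 0.26) for Tyrobp, -0.19 (SE 0.25) for Fcer1g and -0.08 (SE 0.45) for Trem2, with overlap between the groups for each. The 95% interval for Tyrobp ran from -0.29 to 0.81. The widest interval was that of Fcgr4 (-2.99 to 4.11). The most negative difference was that of Plcg2, -2.51 (95% interval -5.18 to 0.16), where the controls were 7.58, 161 and 29.5 TPM and KA_L was 17.99, 9.56 and 0.14 TPM.

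KA_H against CTRL_L differs in both the treatment and the letter, which cannot be told apart there. It shares the KA_H libraries with the comparison above. Tyrobp was higher by 1.57 (SE 0.26, limma adjusted p 0.0166) and Fcer1g by 1.37 (SE 0.25, adjusted p 0.0303), the 2 members that passed, beside 0.377% of all entries. Both calls were lost without CTRL_L replicate 2 or 3 and without KA_H replicate 2 or 3, where adjusted p reached 0.0958, and with only these 6 libraries in the fit, where it was 0.345 for both. They held without CTRL_L replicate 1. Inpp5d, at 269, 281 and 370.1 TPM in CTRL_L, differed by -1.43 (SE 0.58, adjusted p 0.380) with no overlap with KA_H.

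APOE_L against KA_L and APOE_H against KA_H asked what differed between the APOE condition and KA alone. Apoe itself was far lower in the groups labelled APOE, as given above. Among L libraries no member passed the limma test and 0.0457% of all entries did. The adaptors had positive differences there, 0.79 for Tyrobp (SE 0.26, adjusted p 0.419) and 0.90 for Fcer1g (SE 0.25, adjusted p 0.293), with no overlap between the groups and unadjusted p of 0.00763 and 0.00225. The share of all entries without overlap was not counted in any comparison, so a lack of overlap is given as a description. Trem2 differed by 0.66 (SE 0.45, adjusted p 0.817).

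Among H libraries the adaptors lay lower in APOE_H than in KA_H, and Trem2 lay higher. Fcer1g fell by 1.27 on the log2 scale (SE 0.25, limma adjusted p 0.0273), to 0.412 times the KA_H mean. It was the 1 member of 10 that passed, beside 0.531% of all entries. Tyrobp differed by -0.96 (SE 0.26, adjusted p 0.172) and Trem2 by 0.95 (SE 0.45, adjusted p 0.579), both with no overlap between the groups. The Fcer1g call was lost without KA_H replicate 2 or 3 and without APOE_H replicate 2 or 3, where adjusted p reached 0.145. With only these 6 libraries in the fit its adjusted p was 0.167. This comparison rests on the same KA_H libraries as the 2 described before it.

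Each library was also centred on the mean log2 level of its 18 microglia markers, which moved the median over all entries in APOE_H against KA_H from 0.25 to -0.47. On that scale Tyrobp fell by 1.68 (adjusted p 0.00383) and Fcer1g fell by 1.98 (adjusted p 0.00395), so both passed. Trem2 then differed by 0.23 (adjusted p 0.925) in place of 0.95. Relative to the microglia markers, Trem2 thus differed little in this comparison, and the adaptors were lower. The markers themselves moved, with a median difference of 0.79 beside 0.25 over all entries. By limma 10 of the 18 had an unadjusted p under 0.05, beside 8.63% of all entries. The centred scale is therefore not a fixed reference. The mean log2 level of the markers was 10.5, 9.90 and 9.61 in APOE_H and 9.40, 9.26 and 9.19 in KA_H. Among the markers, Tmem119 alone passed the test in APOE_H against KA_H, higher by 2.78 (SE 0.55, adjusted p 0.0273).

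**Figure D3:**
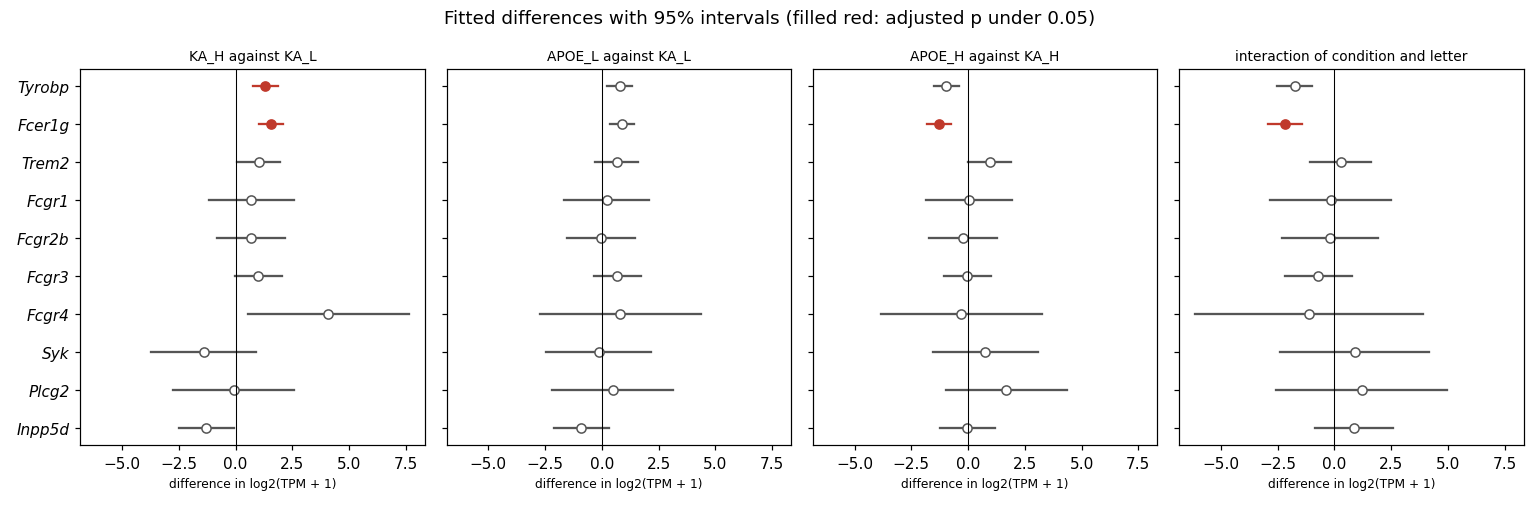
Fitted differences in log2(TPM + 1) of the 10 genes with 95% intervals, in 3 comparisons and in the interaction of condition and letter, with filled red points for an adjusted p under 0.05. Fcer1g and Tyrobp lie to the right of 0 for KA_H against KA_L and to the left for APOE_H against KA_H, and the intervals of Fcgr4, Syk and Plcg2 are the widest.

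The interaction of condition and letter tests whether the APOE-minus-KA difference among H libraries equals that among L libraries. For Fcer1g it was -2.16 (SE 0.35, limma adjusted p 0.0425), the 1 member that passed, beside 0.0457% of all entries. Tyrobp had an interaction of -1.75 (SE 0.37, adjusted p 0.122) and Trem2 one of 0.29 (SE 0.63, adjusted p 0.929). The Fcer1g interaction lay between -2.44 and -1.995 without any 1 of the 12 libraries, but its adjusted p passed the threshold in 1 of those 12 fits, the one without KA_L replicate 2, and reached 0.124. For Tyrobp it passed after upper-quartile scaling (-2.27, adjusted p 0.0159), after centring on microglia markers (-2.17, adjusted p 0.0218) and with the 12 libraries alone in the fit (adjusted p 0.0330). APOE against KA averaged over both letters left no member past the threshold by limma and 0.0171% of all entries. The averaged difference was -0.09 (SE 0.18) for Tyrobp, -0.18 (SE 0.18) for Fcer1g and 0.80 (SE 0.32, adjusted p 0.520, unadjusted p 0.0216) for Trem2.

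APOE_H against APOE_L compared the letters within the APOE condition. In limma no member passed the adjusted threshold, while 6.15% of all entries did. An unadjusted p under 0.05 was found for 2 members, Trem2 and Fcer1g, and for 21.9% of all entries. Trem2 differed by 1.30 (SE 0.45, adjusted p 0.0971) with no overlap, and passed with only these 6 libraries in the fit (adjusted p 0.0276). Fcer1g differed by -0.61 (SE 0.25, adjusted p 0.163) and Tyrobp by -0.43 (SE 0.26, adjusted p 0.348), again with no overlap. After centring on microglia markers the Fcer1g difference was -1.06 (adjusted p 0.0476) and that of Trem2 was 0.85 (adjusted p 0.252).

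H against L, averaged over KA and APOE, had Trem2 as the 1 member that passed, higher by 1.16 (SE 0.32, limma adjusted p 0.0281). The background was high here, as 10.2% of all entries passed, so 1 of 10 members is the share seen over all entries. The Trem2 call was lost in 8 of the 12 fits without 1 library: without KA_L replicate 1 or 3, KA_H replicate 1 or 3, APOE_L replicate 2 or 3 and APOE_H replicate 1 or 3, with adjusted p up to 0.0722. It was also lost after centring on microglia markers (0.92, adjusted p 0.0537). Fcgr4 had the largest averaged difference of the members, 3.53 (SE 1.19, adjusted p 0.0696). It passed without KA_L replicate 1 (4.54, adjusted p 0.0170), the L library with its highest value, and without APOE_L replicate 3 (4.19, adjusted p 0.0420). Choroid plexus markers moved with the same split, all 10 of them called higher in H. Of these, Otx2 was listed at 0 in all KA_L and APOE_L libraries, so its call is given no weight. How many of the 10 passed the filter on low values only through H libraries was not counted, so their number is a description. Border macrophage markers had 4 of 9 called higher, namely Pf4, Ms4a7, Cbr2 and Clec10a, while the list's sum overlapped (365 to 704 TPM in APOE_L and 207 to 829 TPM in APOE_H). Clec10a was listed at 0 in all KA_L and APOE_L libraries, so its call is given no weight. Neutrophil markers had 2 of 6 called higher, S100a8 and S100a9. That list summed to at most 0.39 TPM in every L library. Both genes thus entered the test only through the H side where they are high, and their calls are given no weight. The part of these cells was not tested.

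Ratios within a library do not depend on its scaling, and they show the adaptors and Trem2 coming apart. The ratio of Tyrobp to Trem2 was 3.82 to 4.68 in APOE_H and 7.09 to 21.9 in the other 12 libraries, with no overlap. Fcer1g to Trem2 was 1.497 to 1.839 in APOE_H and 3.16 to 12.2 in the others. Fcer1g to Tyrobp stayed within 0.378 and 0.664 in all 15 libraries. These ratios were chosen after the levels were seen and are a description, with no test. The control nearest to APOE_H was replicate 1 of CTRL_L, with a Tyrobp to Trem2 ratio of 7.09.

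**Figure D4:**
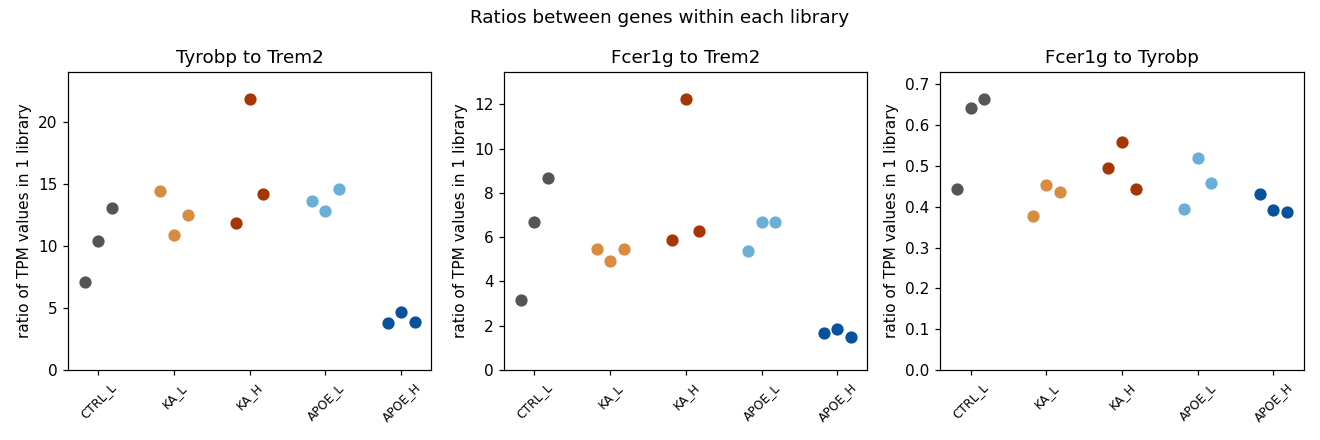
Ratio of the TPM values of 2 genes within each library, by group, with 1 point per library and axes that start at 0. The 3 APOE_H libraries have the lowest ratios of Tyrobp to Trem2 (3.82 to 4.68) and of Fcer1g to Trem2 (1.497 to 1.839), while Fcer1g to Tyrobp is 0.378 to 0.664 throughout.

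The 4 Fc gamma receptors passed the limma threshold in none of the 9 comparisons, and Fcgr4 alone had an unadjusted p under 0.05 in any, with 0.0265 for KA_H against KA_L, 0.0133 for KA_H against CTRL_L and 0.00873 for H against L averaged. Fcgr3, the most abundant of them, was 1985, 548 and 861 TPM in CTRL_L, 248, 649 and 1064 TPM in KA_L, 1230.2, 944 and 1201 TPM in KA_H, 888, 885 and 902 TPM in APOE_L, and 1399, 1198 and 779 TPM in APOE_H. All groups overlapped with at least 1 other, and the spread was smallest in APOE_L. Fcgr2b, the inhibitory member, was 634, 130.3 and 44.6 TPM in CTRL_L, 337, 221 and 236 TPM in KA_L, 480.0, 382 and 382 TPM in KA_H, 226, 211 and 350.1 TPM in APOE_L, and 601, 243 and 310.3 TPM in APOE_H. Its difference between KA_H and KA_L was 0.66 (SE 0.71), with all 3 KA_H values above those of KA_L. Fcgr1, the high-affinity receptor for immunoglobulin G, ranged over 7.36 to 138 TPM within the controls alone, 27.9 to 128 TPM in KA_L, 90.8 to 122 TPM in KA_H, 50.9 to 107 TPM in APOE_L and 83.2 to 156 TPM in APOE_H. Fcgr4 was listed at 0 in 4 libraries, 2 of CTRL_L and 2 of KA_L. It was 1.09, 2.99 and 43.4 TPM in APOE_L and 143, 19.4 and 59.4 TPM in APOE_H.

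Fcgr2b and Fcgr3 share sequence, so reads can be split between them. Of the distinct 50-base stretches of the Fcgr3 transcript, 12.8% (166 of 1298) also occur in Fcgr2b, and 7.44% of those of Fcgr2b (249 of 3347) occur in another gene. The other 8 members shared none. The longest common run in the reading frames is 129 bases, at coding bases 278 to 406 of 1023 in Fcgr2b and 263 to 391 of 804 in Fcgr3. It is shown because reads that fall in it cannot be assigned to either gene.
Fcgr2b and Fcgr3 shared run: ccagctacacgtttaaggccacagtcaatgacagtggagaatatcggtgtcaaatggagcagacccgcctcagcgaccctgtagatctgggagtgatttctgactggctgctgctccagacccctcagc
How the authors assigned such reads is not given in the sources used here, so the levels of this pair are uncertain. The ratio of Fcgr3 to Fcgr2b ran from 0.737 in KA_L to 19.3 in CTRL_L.

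Syk, Plcg2 and Inpp5d passed the limma threshold in none of the 9 comparisons. Inpp5d had an unadjusted p of 0.0400 in KA_H against KA_L and 0.0239 in KA_H against CTRL_L, and the other two had none under 0.05. Inpp5d was 115, 180 and 151 TPM in APOE_L and 188, 109 and 64.5 TPM in APOE_H, so that KA_H and the groups labelled APOE all lay below the lowest control (269 TPM). Syk was 40.1, 46.8 and 16.9 TPM in APOE_L and 21.2, 31.5 and 15.8 TPM in APOE_H, and the controls spread from 1.57 to 75.7 TPM. Plcg2 was 7.23, 6.93 and 1.97 TPM in KA_H, 8.16, 9.81 and 5.35 TPM in APOE_L and 17.8, 34.3 and 8.80 TPM in APOE_H. APOE_H did not overlap with KA_H for Plcg2, with a difference of 1.69 (SE 1.26, limma adjusted p 0.790). The 95% interval of that difference, -0.98 to 4.36, includes 0.

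Other receptors that pair with ITAM adaptors and related genes were taken as a list of 23, of which 14 could be tested. The related genes include Clec7a, which has a motif of its own, and the adaptor Hcst, so the counts are not of paired receptors alone. In KA_H against KA_L the median was 0.61 beside 0.11 over all entries, and the 1 gene called was Sirpb1b, which pairs with Tyrobp. It was 47.7, 17.2 and 11.96 TPM in KA_H and listed at 0 in all 3 KA_L libraries. Sirpb1b reached 1 TPM in H libraries alone, so it entered the test only through the side where it is high, and its calls are given no weight. In KA_H against CTRL_L the 1 called was Clec7a, the beta-glucan receptor Dectin-1, which signals through Syk by a motif in its own tail. It was 637, 318 and 573 TPM in KA_H and listed at 0, 0 and 0.02 TPM in CTRL_L (limma adjusted p 0.00329). H against L averaged over both conditions had 3 of 14 called higher and none lower, beside 10.2% of all entries. They were Clec7a (adjusted p 0.0354), Sirpb1b and Clec4n. Clec4n, the Fcer1g-paired Dectin-2, also reached 1 TPM in H libraries alone and is given no weight, and it was listed at 0 in all KA_L and APOE_L libraries and in 2 of the 6 H libraries. Hcst, an adaptor known as DAP10, ranged from 42.3 to 311 TPM. It lies beside Tyrobp on the opposite strand in the GENCODE M21 annotation, and without a stated strand setting reads at the edge of the genes cannot be told apart.

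The inhibitory receptors and brakes, 23 genes all tested, had none called by limma in KA_H against KA_L, KA_H against CTRL_L, APOE_L against KA_L or APOE_H against KA_H, where 5, 4, 2 and 8 of them, and 14.8%, 10.5%, 7.84% and 8.63% of all entries, had an unadjusted p under 0.05. In APOE_H against APOE_L 2 of 23 were higher and 1 lower, beside 6.15% of all entries called, with a median of 1.24 beside 0.54 over all entries. Cd22, a sialic acid receptor with ITIMs, was 29.7, 10.5 and 11.9 TPM in APOE_H and listed at 0 in APOE_L (adjusted p 0.0256). It is also on the B cell marker list. Among L libraries Cd22 reached 1 TPM only in KA_L replicate 1 (11.87 TPM). It thus passed the filter on low values through H libraries, and its call is given no weight. Dok1, a docking protein that restrains tyrosine kinase signals, was 3.07, 9.81 and 17.5 TPM in APOE_H against 0, 0 and 0.37 TPM in APOE_L. Without the APOE_H libraries Dok1 would not have passed the filter on low values, so its call is given no weight. Cbl, a ubiquitin ligase that removes activated receptors and kinases, was 24.4, 33.3 and 70.4 TPM in APOE_H against 230.4, 299.7 and 242 TPM in APOE_L. The difference was -2.70 (SE 0.62, adjusted p 0.0175). H against L averaged had 1 of 23 higher, Dok1, and 3 lower, beside 10.2% of all entries called. The 3 lower were Cbl (-2.12, SE 0.44, adjusted p 0.00639), Cblb (-3.16, SE 0.75, adjusted p 0.0134) and Ubash3b (-1.82, SE 0.54, adjusted p 0.0414). Among L libraries Dok1 reached 1 TPM only in CTRL_L replicate 1 (2.34 TPM). It thus passed the filter on low values through H libraries, and its call is given no weight here either.

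The Src and Syk signalling chain, 31 genes all tested, had none called by limma in KA_H against KA_L. There 7 of the 31 differences were positive, beside 52.5% of all entries, and 7 had an unadjusted p under 0.05, beside 14.8% of all entries. The median was -0.79 beside 0.11 over all entries. Lyn, a Src family kinase, had 77.8, 61.7 and 58.0 TPM in KA_H against 136, 198 and 170.4 TPM in KA_L (-1.34, SE 0.60, adjusted p 0.304). Lyn was picked after its values were seen. In APOE_H against APOE_L 1 of the 31 was lower and none higher, beside 6.15% of all entries called. It was Gab2, a scaffold for phosphatidylinositol 3-kinase, at 113, 138 and 63.3 TPM against 445, 501 and 320.3 TPM (-2.05, SE 0.52, adjusted p 0.0275). H against L averaged had 2 of the 31 lower and none higher, below the 10.2% of all entries called. They were Gab2 (-1.91, SE 0.36, adjusted p 0.00403) and Pik3r1, a regulatory subunit of that kinase (-1.66, SE 0.48, adjusted p 0.0380).

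Genes for Trem2 ligands, its shedding and its processing were 16 in all, and all were tested. Clu, a lipoprotein that binds Trem2, was higher in KA_H than in KA_L (784, 962 and 767 TPM against 0.14, 30.2 and 0.03 TPM, limma adjusted p 0.0481). Clu is also abundant in choroid plexus, and it followed the choroid plexus markers across libraries, with 1194 and 740 TPM in CTRL_L replicates 2 and 3 and 0.03 TPM in replicate 1. The part of choroid plexus in the Clu levels was not tested. Apoe passed in KA_H against CTRL_L as higher (4.74, SE 0.87, adjusted p 0.0307). It was lower in APOE_L than in KA_L (-10.89, SE 0.87, adjusted p 1.19e-05), and in APOE_H than in KA_H (-8.88, SE 0.87, adjusted p 0.000247). In APOE_H against APOE_L 4 of 16 were higher and none lower, beside 6.15% of all entries called, namely Apoe, Clu, Ms4a4a and Grn. H against L averaged had 3 of 16 higher and none lower, beside 10.2% of all entries, namely Apoe (adjusted p 0.00515), Clu (adjusted p 0.000725) and Ms4a4a. Ms4a4a, whose human relative has been linked to soluble TREM2, was 103, 76.6 and 83.3 TPM in APOE_H and at most 0.33 TPM in APOE_L. It reached 1 TPM in H libraries alone, so its calls are given no weight. Grn, the lysosomal protein progranulin, was 1892, 713 and 1446 TPM against 187, 185 and 310 TPM (2.50, SE 0.62, adjusted p 0.0266).

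Of 11 other Fc receptors 5 could be tested. Fcmr, the receptor for immunoglobulin M, was 7.34, 27.3 and 9.18 TPM in APOE_H and listed at 0 in the other 12 libraries. It passed the filter on low values only through APOE_H, so its calls there are given no weight. B cell markers summed to 10.5 to 55.0 TPM in APOE_H, 15.4 to 18.2 TPM in KA_H and 0.01 to 76.5 TPM in APOE_L, and their part was not tested. Fcer1a, the receptor subunit that pairs with Fcer1g on mast cells, was listed at 0 in all 15 libraries. Of 13 immunoglobulin constant genes, whose products are the ligands of Fc receptors, 4 could be tested and none passed limma in any comparison, with an unadjusted p under 0.05 for at most 1 of the 4. Ighm was the most abundant of them at 85.4 to 437 TPM, and Ighg1 reached at most 0.10 TPM.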

How the data were processed

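Gene expression was deposited by the authors as TPM for 15 libraries, and per the submitters' processing notes alignment used STAR and the build named is GRCh38, a human assembly, although the identifiers are mouse Ensembl genes. The quantification tool, strand setting and depth are not given in the sources used here, so no counting interval, count test or coordinates are given. Symbols came from the GENCODE M21 annotation and matched 52083 of 55416 Ensembl entries. Tests were run with limma 3.58.1 in R 4.3.3 on log2(TPM + 1), with all 15 libraries, a mean per group and a mean-variance trend, over entries that reached 1 TPM in 3 or more libraries. P-values were adjusted by Benjamini-Hochberg over all entries within each of 9 comparisons, and the threshold was 0.05. A difference in log2(TPM + 1) understates changes of low genes. The 10 genes, the pathway and marker lists and the tests were chosen with earlier results of these data known. Named were the 10 genes in every comparison, up to 6 called genes of each pathway list by adjusted p, marker sums with the most abundant marker, and Apoe. Lyn, Fcer1a, Ighm, Ighg1 and Hcst were named after their values were seen, and 1 gene of a list is not reported here. The fit was tested on simulated data. Alternatives were another pseudocount (0.1), no filter, 3 scalings, a fit on the compared groups, a replicate block and leaving out each library.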

Additional observations from a re-analysis of the deposited data

Results flagged for a closer look

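The difference between the APOE condition and KA alone differed between H and L libraries for Fcer1g, with an interaction of -2.16 (SE 0.35, limma adjusted p 0.0425). Fcer1g was 0.90 higher in APOE_L than in KA_L on the log2(TPM + 1) scale, and in APOE_H against KA_H it fell by 1.27. All 3 APOE_L libraries exceeded all 3 KA_L libraries, and all 3 APOE_H libraries lay below all 3 KA_H libraries. The call was kept in 1 of 12 fits without 1 library.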

How the results depend on the processing

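No fitted difference of a member changed sign in any setting where it was called or had an unadjusted p under 0.05. The number of members called moved as follows. Without the filter on low values it was 0 in KA_H against KA_L, KA_H against CTRL_L, APOE_H against KA_H, H against L averaged and the interaction, in place of 2, 2, 1, 1 and 1. Upper-quartile scaling gave 2 in APOE_H against KA_H, 2 in H against L averaged and 2 in the interaction. Centring on microglia markers gave 2 in APOE_H against KA_H, 2 in APOE_H against APOE_L, 2 in the interaction and 0 in H against L averaged. With only the groups compared in the fit, 0 were called in KA_H against KA_L, KA_H against CTRL_L and APOE_H against KA_H, 1 in APOE_H against APOE_L and 2 in the interaction. Leaving out each library gave 1 to 2 in KA_H against KA_L, 0 to 2 in KA_H against CTRL_L, 0 to 1 in APOE_H against KA_H, 0 to 2 in H against L averaged and 0 to 1 in the interaction. The pseudocount of 0.1 and rescaling to named genes moved no count. The cause of these moves was not tested, beyond the fewer libraries or the larger number of entries that a setting implies. Same-numbered libraries did not deviate together (correlations of -0.0263 to 0.0365 over 18 pairs of libraries). This does not exclude that same-numbered libraries share a source, which the labels do not give. The fit with the replicate block gave 1 in KA_H against CTRL_L and 0 in the interaction, where adjusted p for Fcer1g was 0.0529 and 0.0562, and changed no other count. Over all entries, the number called in KA_H against KA_L was 260, and it was 100 without the filter, 394 after upper-quartile scaling, 76 after centring on microglia markers and 3 with only the groups compared. In APOE_H against KA_H it was 93, and 4, 101, 30 and 0 in the same settings. In the interaction it was 8, and 3, 24, 2 and 18. In KA_H against CTRL_L it was 66, and 33, 139, 83 and 3. With TPM the depth behind a value is unknown, and 3 libraries a group limit the precision, most of all for Fcgr4, Syk and Plcg2.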

Other observations

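The microglia markers did not move as one in APOE_H, the group in which Trem2 was highest. Against APOE_L, 12 of the 18 had positive differences, beside 60.3% of all entries. Of the 18, 2 passed the limma test as higher, beside 6.15% of all entries called. P2ry12, a purinergic receptor of microglia, lay lower at 2090.1, 1973 and 878 TPM against 2498, 3101 and 2421 TPM (-0.79, SE 0.43, adjusted p 0.302). Gpr34, a lysophospholipid receptor, was 1277, 1123 and 433 TPM against 1872, 1764 and 1735 TPM (-1.07, SE 0.47, adjusted p 0.198). Some markers and some pathway genes had their highest values in APOE_H. Tmem119, a microglial surface protein, was 946, 413 and 467 TPM in APOE_H and 63.4 to 352 TPM in the other 12 libraries. Laptm5, a lysosomal membrane protein of blood and microglial cells, was 3176, 1325 and 1768 TPM in APOE_H and 130 to 1004 TPM elsewhere, and it passed the limma test against APOE_L (3.12, SE 0.62, adjusted p 0.00852). C1qa, a chain of complement component C1q, was 5618, 3158 and 4637 TPM in APOE_H and 389 to 3300 TPM elsewhere, so that it overlapped with CTRL_L replicate 1, and it passed against APOE_L (1.67, SE 0.46, adjusted p 0.0406). Ptpn6, the phosphatase SHP-1 that ITIM receptors recruit, was 432, 291 and 235 TPM in APOE_H and 21.9 to 133 TPM elsewhere. Fcrls, an Fc receptor-like gene of mouse microglia, was 1407, 971 and 923 TPM in APOE_H and 94.2 to 902 TPM elsewhere. These 7 genes were picked from the lists after their values were seen and are given as a description.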
